A study of Mus musculus with 8 samples.

Results

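The genes described here encode core proteins of the spliceosome and the splicing factors that guide it: the Sm and LSm proteins, the U1 and U2 particle proteins, SF3A and SF3B, U2AF, the Prp proteins and the SR proteins. They were chosen by symbol pattern (Sf3a and Sf3b numbers, Snrp, Prpf, Lsm and Srsf symbols, and U2af), after the Colq against vector comparison of these tumors was known. Fold changes of these genes in that comparison, and the calls made from them, are therefore a description and not independent evidence. The patterns matched 60 of the 28918 genes in the expression table. The tumors grew under the skin of C57BL/6 mice from the mouse melanoma line B16-mhgp100, carrying either over-expressed Colq (3 tumors, 3 libraries) or the vector alone (3 tumors, 5 libraries, since 2 of these tumors were sequenced as 2 portions). Colq is the gene for a collagen-like tail by which acetylcholinesterase is fixed at the neuromuscular junction. Every mouse of both groups received anti-PD1 antibody at 200 µg per dose, 2 doses per week from day 10 after inoculation, 4 doses in all, and its tumor was taken 1 day after the last dose. The labels give no untreated group, no promoter for the Colq construct, no age of the mice and no statement on whether either line is 1 clone.

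The spliceosome removes introns from pre-mRNA. Small nuclear ribonucleoprotein particles, each an RNA held in a ring of Sm proteins (or of LSm proteins in the case of U6), assemble on an intron in steps. U1 marks the 5′ splice site, U2AF and then the SF3A and SF3B complexes of U2 settle at the 3′ end and the branch point, and the tri-snRNP with its Prp proteins joins to form the catalytic machine. SR proteins bind exons and recruit these particles, so they take part in the choice of alternative exons.

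Values are TPM (transcripts per 1e6 transcripts), which divide reads by transcript length and fix the sum of every library, so the read depth behind a value is unknown and precision rests on the spread between tumors. A log2 fold change is Colq minus vector of log2(TPM + 1), a measure that compresses changes at low levels, for which portions of a tumor were averaged on the log2 scale; TPM means average portions as TPM. A gene is called where limma, fitted on all 13726 genes with a mean of at least 1 TPM, gave a Benjamini-Hochberg adjusted p under 0.05. As a check of the labels, Colq itself reached 4.05, 5.03 and 3.86 TPM by Colq library and at most 0.24 TPM by vector library, which does not separate the construct from Colq of host tissue. Libraries listed 19887 to 21602 genes above 0. The tumors also differed in makeup. All 8 skeletal muscle markers were higher in Colq tumors (summed level 733 to 753 TPM against 30.5 to 144), 2 of 8 macrophage markers were higher (1565 to 1611 against 455 to 1131 TPM), and 6 of 7 melanocyte markers were lower (10949 to 11272 against 17604 to 22338 TPM). Keratinocyte markers were higher for 4 of 5 (35.8 to 41.3 TPM, inside the vector range of 0 to 193), T cell markers for 2 of 6 (20.2 to 27.3 against 10.0 to 27.8 TPM), and 3 of 3 tested endothelial markers were lower (10.3 to 12.2 against 29.5 to 45.3 TPM). Fibroblast markers moved both ways, 2 higher and 2 lower of 5 (150 to 162 against 112 to 199 TPM), and the 1 neuronal marker above the filter was not called, with Snap25 at 0 in every library. Ribosomal protein genes held 21.2% to 22.1% of TPM in Colq libraries and 14.0% to 15.9% in vector libraries, and mitochondrially encoded genes 7.44% to 8.12% against 3.74% to 5.25%. The part of these shifts in the values below was not tested. In bulk tumors, fewer cells of a type and less RNA per cell cannot be told apart.

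Of the 60 splicing genes, 58 passed the expression filter. None of the 58 was below 4.91 TPM in any library, so none passed through 1 group alone. The other two were Snrpn, a Sm protein gene best known from neurons, at 0.39, 0.45 and 0.48 TPM in Colq libraries and 0 to 0.32 TPM in vector libraries, and Srsf12, listed at 0 in every library but Colq 2 (0.04 TPM). In Colq tumors 11 of the 58 were higher, 37 were lower and 10 were not called. Among all tested genes 11.3% were higher and 59.6% lower. Of the splicing genes 19.0% were higher, above that share, and 63.8% were lower, near it. The difference in shares was not tested. The Colq tumors lay wholly above the vector tumors for 13 splicing genes (12.2% of all genes) and wholly below for 37 (62.5% of all genes). The median log2 fold change of the 58 was -0.47, beside -0.50 for all tested genes, and 31 lay above that all-gene median and 27 below it. Together the 60 genes held 6926 ± 26.9 TPM with Colq and 7611 ± 312 TPM with vector (mean and SD over 3 tumors each, as for every such pair that follows). The median of the set and its share of lower genes thus stood near the background, and its share of higher genes above it. The classes of the set spread to both sides of the background. Sm and LSm ring genes made up 8 of the 11 higher genes, and the 32 genes of the SF3, Prp and SR classes that were tested held 28 of the 37 lower ones.

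**Figure D1:**
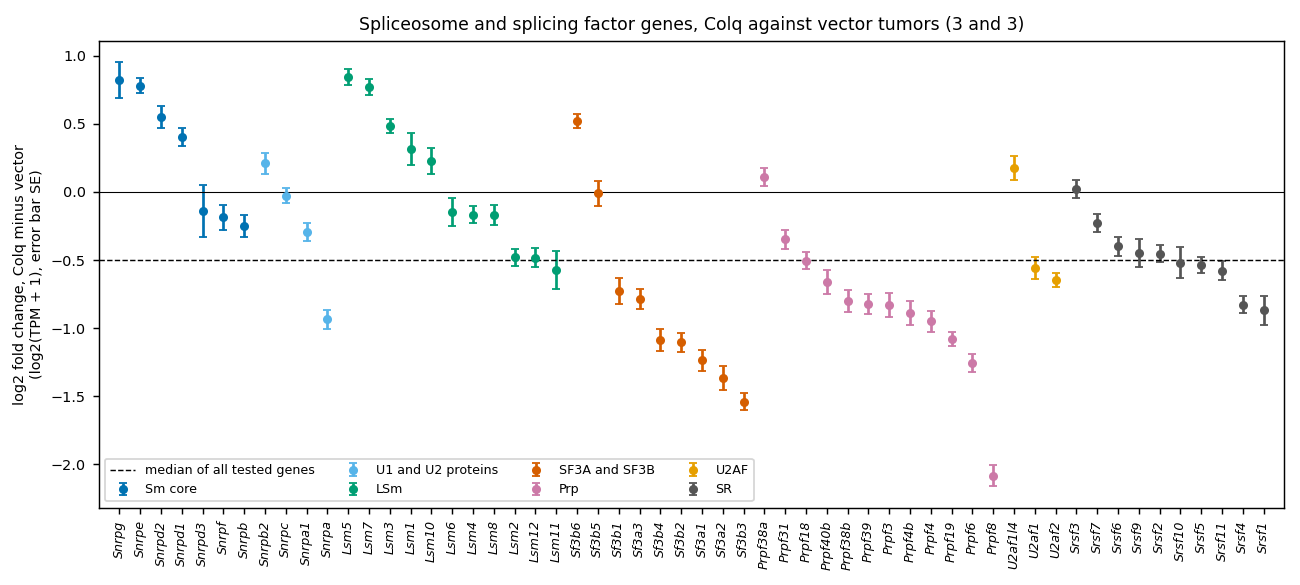
Log2 fold change (Colq minus vector, log2(TPM + 1) scale, y axis) of single splicing genes (x axis), grouped by role, with 1 point per gene and its standard error; the dashed line marks the median of all tested genes at -0.50. The Sm core genes lie above that line, and the Prp genes shown other than Prpf38a lie below 0, out to Prpf8 at -2.08.

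The Sm core is the ring of 7 proteins shared by the U1, U2, U4 and U5 particles. Of its 7 tested genes, 4 were higher in Colq tumors (11.3% of all genes), 1 was lower (59.6% of all genes) and 2 were not called, with a median log2 fold change of 0.40. Their summed level was 1959 ± 48.9 TPM with Colq against 1555 ± 111 TPM with vector. Snrpe, which encodes protein E of the ring, reached 741.7, 702.8 and 745.1 TPM in libraries of the Colq group. In the vector libraries it stood at 430.9 and 453.2 TPM (portions of tumor 1), 463.0 and 395.3 TPM (portions of tumor 2) and 403.7 TPM (tumor 3). Every Colq library was above every vector library, a log2 fold change of 0.78 (SE 0.055). Snrpg, its ring partner protein G, stood at 237.3, 215.3 and 238.5 TPM against 108.6, 108.1, 138.3, 115.4 and 159.7 TPM, again with no overlap (0.82, SE 0.13). Snrpd2 (0.55) and Snrpd1 (0.40), which encode proteins of the D group, were the other two higher genes. Snrpb, which encodes proteins B and B′, went the other way at 382.1, 371.9 and 353.0 TPM against 428.6, 453.6, 393.6, 399.4 and 485.9 TPM (-0.25, SE 0.080). Its Colq tumors lay below the vector tumors, and its direction turned to 0.32 after size factors. Snrpf (-0.19) and Snrpd3 (-0.14) were not called. Exons of Snrpf share 65.9% of their bases with an antisense gene that unstranded reads cannot set apart, and Snrpd3 ranged from 66.1 to 125.8 TPM among the vector libraries, around the 78.6 to 87.1 TPM of the Colq libraries. The ratio of Snrpe to Snrpb, whose products sit in 1 ring in equal number, was 1.94, 1.89 and 2.11 in Colq libraries and 0.83 to 1.18 in vector libraries. This ratio and the ratios of gene pairs below restate the fold changes given for those genes. Those were known when the genes were chosen, so the ratios are not further evidence.

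The pattern Snrp also took in Snrpert, which is annotated as a processed pseudogene, a copy of a spliced message set back into the genome. It is a near-identical copy of the Snrpe message, and reads of the pair can hardly be told apart. Snrpert had the largest log2 fold change of the 58 genes at 1.36 (SE 0.10), with 185.3, 248.5 and 217.0 TPM in Colq libraries and 112.0, 61.3, 88.0, 78.8 and 83.0 TPM in vector libraries. It was also the gene that differed most between the portions of vector tumor 1, by 0.86 on the log2 scale. Its level is uncertain, since the estimate divides near-identical reads between both genes. The summed level of the pair, which also shifts with that division because the transcripts differ in length, was 927, 951 and 962 TPM by Colq library and 474 to 551 TPM by vector library, with means of 946.8 ± 18.0 and 509.3 ± 21.2 TPM over tumors.

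**Figure D2:**
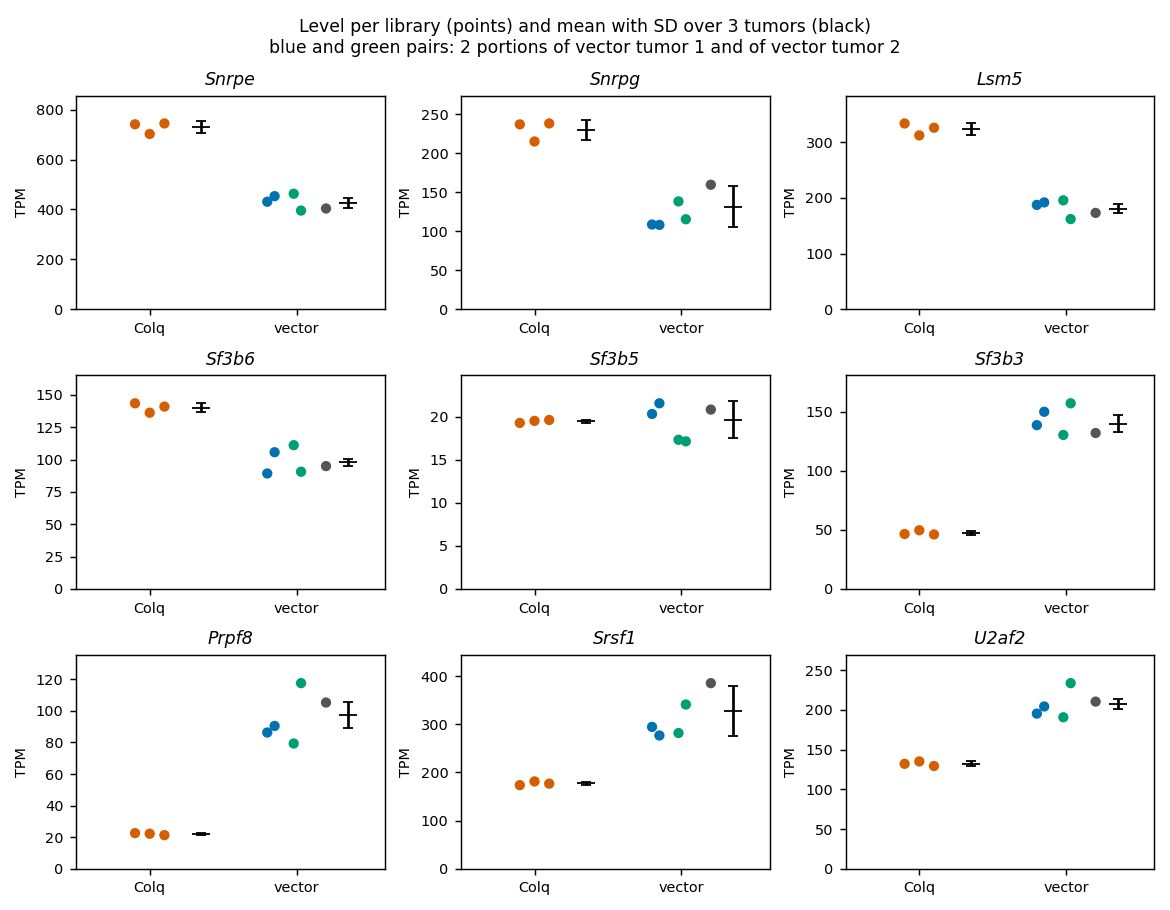
TPM (linear y axis from 0) of selected splicing genes in each library, with Colq and vector tumors side by side; portions of vector tumors 1 and 2 are separate points in 1 color per tumor, and black bars are the mean and SD over 3 tumors. Snrpe lies at 702.8 to 745.1 TPM in Colq libraries and 395.3 to 463.0 TPM in vector libraries, and Prpf8 at 21.3 to 22.6 TPM against 79.3 to 117.6 TPM.

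Of the 11 LSm genes, 4 were higher (11.3% of all genes), 4 lower (59.6% of all genes) and 3 not called. Their median was -0.15 and their summed level 1459 ± 28.4 TPM against 1145 ± 1.05 TPM. The median turned to 0.42 after size factors. Lsm2 to Lsm8 encode the ring that binds the end of U6 RNA, and in the cytoplasm Lsm1 takes the place of Lsm8 in a ring that acts in mRNA decay. Within the U6 ring, Lsm5 stood at 334.2, 312.7 and 326.5 TPM against 187.5, 192.1, 195.7, 162.0 and 173.2 TPM (0.84, SE 0.057). Lsm7 stood at 388.5, 367.7 and 415.9 TPM against 222.0, 245.1, 252.5, 212.0 and 220.8 TPM (0.77, SE 0.061). Neither gene overlapped between groups, and Lsm3 (0.49) lay on the same side. Lsm2, of the same ring, stood at 57.3, 63.2 and 62.4 TPM against 82.7, 92.9, 86.8, 78.8 and 85.5 TPM (-0.48, SE 0.062), with the Colq tumors below. Lsm4 (-0.17) was lower too, while Lsm6 (-0.15) and Lsm8 (-0.17) were not called. After size factors Lsm4 (0.41), Lsm6 (0.42) and Lsm8 (0.40) were called higher. The LSm class then had 8 higher and 0 lower genes (28% and 25.5% of all genes). The ratio of Lsm7 to Lsm2 was 6.78, 5.82 and 6.67 in Colq libraries and 2.58 to 2.91 in vector libraries. Lsm1, of the decay ring, had a log2 fold change of 0.32 from low levels (11.5 to 13.4 TPM against 7.39 to 11.6 TPM by library). Lsm10 and Lsm11 encode the LSm proteins of U7, the particle that trims histone messages. Lsm10 was not called (0.23) and Lsm11 was lower (-0.57), at 4.91 to 6.90 TPM against 7.65 to 9.94 TPM. Lsm12, which is not part of these rings, was lower (-0.48).

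The specific proteins of U1 and U2 divided 1 higher (11.3% of all genes), 2 lower (59.6% of all genes) and 1 not called. Their median was -0.16, which turned to 0.41 after size factors. Snrpa, the U1 A protein that binds a stem-loop of U1 RNA, stood at 62.2, 61.4 and 54.0 TPM in Colq libraries and 111.1 to 121.8 TPM in vector libraries, with no overlap (-0.94, SE 0.070). Snrpc, the U1 C protein at the 5′ splice site, overlapped between groups (148.1 to 150.7 TPM against 142.7 to 170.7 TPM; -0.03). Snrpa1 and Snrpb2 encode U2 A′ and U2 B″, which bind U2 RNA as a pair. On the TPM scale they lay on opposite sides: Snrpa1 at -0.29 (SE 0.066) and Snrpb2 at 0.21 (SE 0.077). After size factors both were called higher, Snrpa1 at 0.27 and Snrpb2 at 0.78. With the length and GC trend removed Snrpa1 lay at -0.002 and Snrpb2 at 0.28. Snrpb2 stood at 74.8, 63.7 and 72.4 TPM against 54.2, 64.5, 59.3, 58.7 and 63.3 TPM, so that Colq library 2 lay below the higher portion of vector tumor 1 although the tumor averages did not overlap. The ratio of Snrpb2 to Snrpa1 was 1.18, 1.04 and 1.21 in Colq libraries and 0.70 to 0.90 in vector libraries.

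SF3A and SF3B are the complexes of U2 that hold the branch point. Of their 9 genes, 7 were lower in Colq tumors (59.6% of all genes), with a median of -1.09 (all genes -0.50). Their summed level was 500.3 ± 10.8 TPM against 856.1 ± 23.6 TPM. All 3 SF3A genes were lower: Sf3a2 (-1.37), Sf3a1 (-1.24) and Sf3a3 (-0.78). Sf3b3, a large scaffold subunit of SF3B, stood at 46.5, 49.7 and 46.1 TPM against 138.7, 150.0, 130.4, 157.2 and 132.0 TPM (-1.54, SE 0.063). Sf3b2 (-1.11) and Sf3b4 (-1.09) followed, and Sf3b1, whose HEAT repeats close around the branch point and which is the subunit most often mutated in myelodysplasia, stood at 80.6 to 87.9 TPM against 125.7 to 162.1 TPM (-0.73). Sf3b1 was not called on the other scales, at -0.16 after size factors and -0.04 with the length and GC trend removed. For all 7 genes no Colq tumor reached the vector tumors. The small subunits did not share the decrease. Sf3b6, the p14 subunit that contacts the branch-point adenosine, stood at 143.6, 136.3 and 141.0 TPM against 89.3, 105.7, 111.2, 90.6 and 95.0 TPM, higher with no overlap (0.52, SE 0.053). Sf3b5 overlapped, at 19.3 to 19.6 TPM against 17.1 to 21.6 TPM (-0.01). The ratio of Sf3b6 to Sf3b3 was 3.09, 2.74 and 3.06 in Colq libraries and 0.58 to 0.85 in vector libraries.

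U2AF recognises the 3′ end of the intron. Its large subunit gene U2af2, which binds the polypyrimidine tract, stood at 132.1, 135.2 and 129.4 TPM against 190.8 to 233.8 TPM (-0.64, SE 0.051). The small subunit gene U2af1, which reads the AG at the splice site, stood at 232.0, 252.8 and 238.4 TPM against 307.8 to 395.4 TPM (-0.56, SE 0.084). Both were lower without overlap, and the range of their ratio overlapped, at 1.76 to 1.87 in Colq libraries and 1.32 to 1.88 in vector libraries. Neither was called lower after size factors, where U2af1 lay at 0.02 and U2af2 at -0.07. With the length and GC trend removed U2af1 was called lower (-0.32) and U2af2 was not called (-0.11). U2af1l4, a paralog of the small subunit, was not called (0.18; 50.3 to 61.0 TPM against 45.2 to 58.0 TPM), and 65.6% of its exonic bases lie in another annotated gene on the same strand, which makes its level uncertain.

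The Prp proteins act mostly in and around the tri-snRNP. Of 13 Prpf genes 12 were lower (59.6% of all genes) and 1 was not called. Their median was -0.83 (all genes -0.50) and their summed level 392.4 ± 7.59 TPM against 735.1 ± 14.1 TPM. Prpf8, the large U5 protein that cradles the catalytic RNA, had the lowest log2 fold change of all 58 genes at -2.08 (SE 0.078). It stood at 22.6, 22.2 and 21.3 TPM in Colq libraries, and at 86.3 and 90.5 TPM, 79.3 and 117.6 TPM, and 105.3 TPM in the 3 vector tumors, a Colq level of 0.24 times that of vector. The groups did not come near each other, even though the portions of vector tumor 2 differed by 0.56 on the log2 scale, the widest portion difference of any splicing gene in that tumor. Prpf6, a bridge between the U5 and U4/U6 parts of the tri-snRNP, came next (-1.25). Prpf19, the ubiquitin ligase at the core of its own spliceosomal complex, stood at 51.8, 51.4 and 51.4 TPM against 99.7 to 129.2 TPM (-1.08, SE 0.053). The U4/U6 proteins Prpf4 (-0.95) and Prpf3 (-0.83) and the kinase Prpf4b (-0.89) lay in the middle of the class. Prpf31 (-0.35), the other U4/U6 protein, lay nearest 0 among the lower genes on the TPM scale and was called higher after size factors (0.22) and with the length and GC trend removed (0.27). Prpf38a was not called (0.11, at 57.0 to 59.6 TPM against 50.3 to 59.2 TPM). It was called higher after size factors (0.67) and with the length and GC trend removed (0.47). On each of those scales 2 Prpf genes were higher and 8 lower.

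Of the 10 tested SR genes 9 were lower (59.6% of all genes) and 1 was not called, with a median of -0.49, close to that of all genes. Their summed level was 1629 ± 22.7 TPM against 2219 ± 140 TPM. After size factors the median was 0.08, with 2 genes lower and 2 higher (25.5% and 28% of all genes). Srsf1, the founding SR protein and a known oncogene product, was the furthest down, at 173.6, 181.2 and 176.7 TPM against 294.4, 276.7, 281.7, 340.9 and 385.3 TPM (-0.87, SE 0.11). Srsf4 (-0.83) was near it, though 43.0% of its exonic bases overlap a gene on the other strand. Srsf2, the most abundant SR gene by mean TPM, stood at 302.2, 304.9 and 308.9 TPM against 384.5 to 454.0 TPM (-0.45, SE 0.063), without overlap, and at 0.12 after size factors. Srsf11 (-0.58), Srsf5 (-0.54), Srsf10 (-0.52), Srsf9 (-0.45), Srsf6 (-0.40) and Srsf7 (-0.23) completed the lower genes. Srsf3, the smallest of them, overlapped at 286.7 to 288.9 TPM against 262.0 to 310.8 TPM (0.02, SE 0.066). The ratio of Srsf3 to Srsf1 was 1.58 to 1.66 in Colq libraries and 0.79 to 1.04 in vector libraries.

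By level, the most abundant splicing genes of vector tumors were Snrpb (441.2 TPM), Snrpe (425.0 TPM), Srsf2 (418.9 TPM) and U2af1 (356.6 TPM). The vector libraries of these 4 genes overlapped. In Colq tumors Snrpe led at 729.9 TPM, above Lsm7 at 390.7 TPM and Snrpb at 369.0 TPM, which overlapped each other. Prpf8 had rank 30 in vector tumors and rank 49 in Colq tumors among the 59 genes other than Snrpert. Within groups the splicing genes varied little, with a median coefficient of variation of 4.43% in Colq tumors and 5.78% in vector tumors, beside 7.52% and 10.9% for all tested genes.

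The fold changes of the splicing genes were ordered by the length of the protein they encode. Across the 57 genes with a coding sequence, the log2 fold change and coding length had a Spearman correlation of -0.87 and a Pearson correlation of -0.85 with log10 length. Across all 11907 tested coding genes the same values were -0.61 and -0.55, so the relation is not peculiar to splicing genes; genes of 1 set of libraries are not independent replicates. The median log2 fold change of the 20 splicing genes with under 600 coding bases was 0.12 (all genes 0.14). The 21 between 600 and 1500 bases had a median of -0.50 (all genes -0.39). The 16 with 1500 bases or more had a median of -0.92 (all genes -0.82), and 0 of them lay above 0. The classes differ in this respect: the median coding length was 354 bases for Sm core genes, 366 for LSm, 772.5 for SR, 1503 for SF3 and 1995 for Prp genes. Inside SF3B, Sf3b6 (375 bases) and Sf3b5 (258 bases) are the short subunits and Sf3b1 (3912 bases) and Sf3b3 (3651 bases) the long ones. Total exonic length followed the fold change less closely (Spearman -0.59), and GC content little (-0.17). After a loess trend on exonic length and GC was removed from the values of all genes, the splicing genes kept a Spearman correlation of -0.63 with coding length. The relation also appeared between portions of a single tumor. In vector tumor 2, the second portion minus the first had a Spearman correlation of 0.55 with coding length over the same 57 genes (0.39 over all genes), and in vector tumor 1 of -0.08 (-0.05 over all genes). Whether this relation arose in the tumors or in the libraries was not tested.

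**Figure D3:**
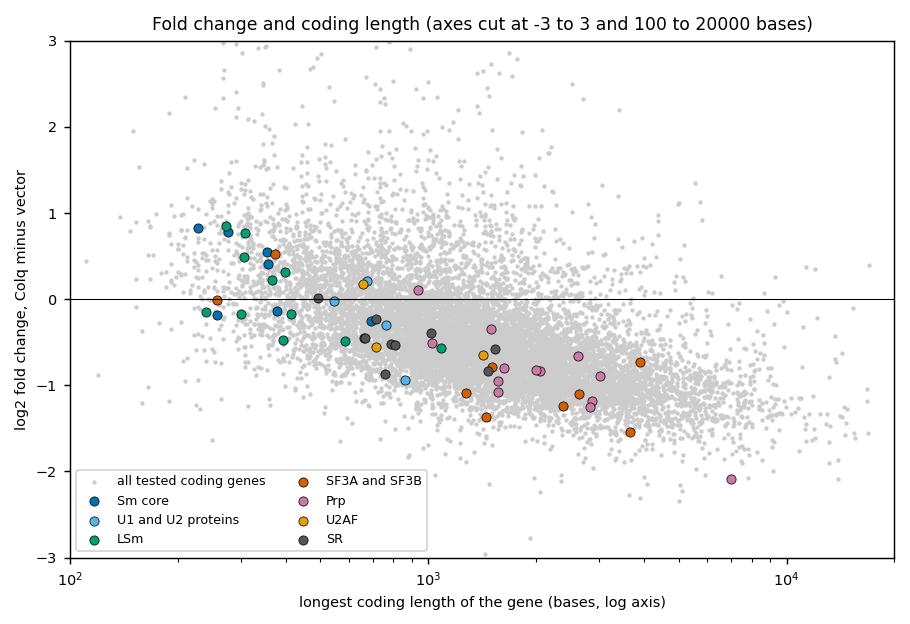
Log2 fold change (Colq minus vector, y axis) against coding length in bases (log x axis from 100 to 20000) for splicing genes, colored by role, over all tested coding genes in grey; 36 of 11907 genes lie outside the axes. Short Sm and LSm genes sit around and above 0, and Prpf8, with 7005 coding bases, is the lowest of the splicing genes.

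Portions of 1 tumor give a measure of spread that played no part in choosing the genes. The median absolute difference between portions was 0.10 for the splicing genes in vector tumor 1 and 0.15 in vector tumor 2, beside 0.14 and 0.22 for all tested genes. Among the 57 coding splicing genes it was smaller than the Colq to vector difference for 48 in tumor 1 and 50 in tumor 2. That group difference was known when the genes were chosen. The matching share over all tested genes is not given, so these counts have no background to be set beside. Portion differences reached 0.41 for Lsm1 in tumor 1, more than its difference of 0.32 between groups.

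TPM values are shares of a fixed total, and the median of all genes lay at -0.50, so counts of higher and lower genes depend on the scale. Size factors by the median of ratios bring the all-gene median near 0; with them 25 of the 58 genes were higher and 17 lower, with a median of 0.11 (28% and 25.5% of all genes). With the length and GC trend removed, 17 were higher and 23 lower, with a median of -0.03 (19.8% and 27.7% of all genes, whose median was -0.07). By the authors' deposited table, 24 were higher and 18 lower at an adjusted p under 0.05, with a median of 0.08 (20.1% and 20.4% of 19153 genes). Those 19153 are all genes with an adjusted p there, without the filter of 1 TPM that the 58 passed. These shares are therefore not a like background. By class, after size factors the Sm core had 6 higher and 0 lower genes, LSm 8 and 0, SF3 2 and 6, and Prp 2 and 8, while SR genes had 2 and 2. Of the 37 lower genes, 14 lay above 0 after size factors: Lsm2, Lsm4, Lsm12, Prpf18, Prpf31, Snrpa1, Snrpb, Srsf2, Srsf5, Srsf6, Srsf7, Srsf9, Srsf10 and U2af1. Of the 11 higher genes 0 fell below 0 on either other scale. On the size factor scale, both this and the 14 crossings followed the direction of the rescaling, which raised the all-gene median from -0.50 to -0.0013. They are therefore no measure of how firm the calls are. The share of all genes that crossed 0 is not given. With the trend removed the class counts were 4 and 1, 4 and 2, 2 and 6, 2 and 8, and 2 and 4. Over 18 settings, including these, 9 genes were called higher in every one: Snrpe, Snrpg, Snrpd1, Snrpd2, Lsm3, Lsm5, Lsm7, Sf3b6 and Snrpert. Another 17 were called lower in every one, among them Prpf8, Prpf6, Prpf19, Prpf4, Prpf4b, Prpf39, Prpf38b, Sf3b3, Sf3a2, Sf3a1, Sf3a3, Sf3b2, Sf3b4, Snrpa, Srsf1 and Srsf4. A further 8 were called in opposite directions under different settings (Lsm4, Lsm8, Prpf31, Snrpa1, Snrpb, Snrpf, Srsf7 and Srsf11), so that no direction is given for them beyond the scale named. The share of all tested genes called in every setting is not given, and the settings draw on the same tumors. These counts therefore have no background to be set beside.

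**Figure D4:**
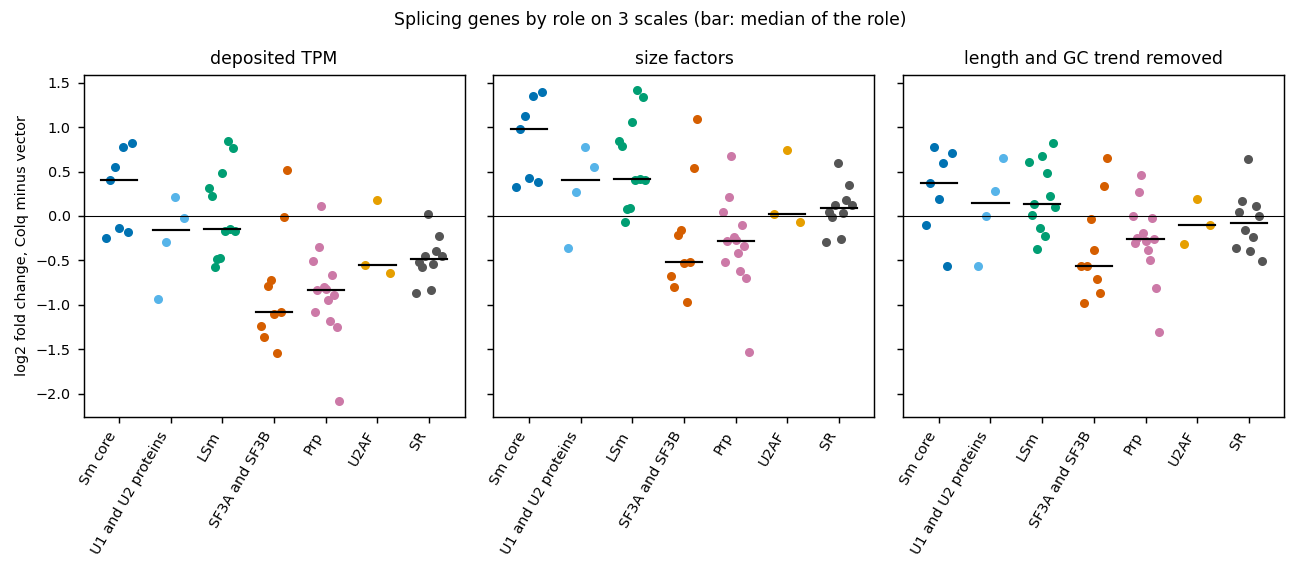
Log2 fold change (Colq minus vector, y axis) of 57 splicing genes, without Snrpert, on 3 scales: deposited TPM, after size factors, and with the length and GC trend removed; 1 point per gene, grouped by role (x axis), with a bar at the median of the role. The SF3 median is -1.09, -0.52 and -0.56 in turn, and Prpf8 stays below 0 at -2.08, -1.53 and -1.31.

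The splicing machinery holds many genes outside these symbol patterns. Of 114 genes in 4 lists, 113 were in the table and 108 were tested: 6 were higher and 95 lower, with a median of -0.79 (19 and 55 after size factors, median -0.23). These lists too were drawn up with results of this comparison known. The background for every list in this paragraph is the share of all tested genes called. On the TPM scale this share was 59.6% for lower and 11.3% for higher genes, and the all-gene median log2 fold change was -0.50. Size factors changed the shares to 25.5% and 28%, and the all-gene median to -0.0013. Among 50 other spliceosome proteins, 43 were lower and 4 higher. Snrnp200, the helicase that unwinds U4 from U6 and a direct partner of Prpf8, stood at 21.4, 19.5 and 19.0 TPM against 58.9 to 79.3 TPM (-1.74). The intron-binding helicase Aqr (-1.42) and the branch-point binding protein Sf1 (-1.17) were lower in the same limma fit, with no Colq tumor in the vector range. The higher genes were Snrnp25 (0.73), of the U12-type spliceosome, the tri-snRNP cyclophilin Ppih (0.56), Bud31 (0.52) and Snrnp27 (0.26). Phf5a, a further small subunit of SF3B, stood at 87.0, 102.0 and 92.7 TPM against 89.1 to 109.1 TPM and was not called (-0.10). Of 16 genes for the assembly of Sm rings on RNA, 11 were lower and 2 higher. Gemin5, which recognises the RNA, stood at 7.77, 7.82 and 8.83 TPM against 23.7 to 28.8 TPM (-1.63). Prmt5 (-1.26), which methylates Sm proteins, and Gemin4 (-1.18) were lower as well. Gemin7, a small subunit of the same SMN complex, was higher at 102.6, 108.5 and 102.1 TPM against 56.6 to 62.6 TPM (0.79), as was Clns1a (0.33), the chaperone that holds Sm proteins before assembly. Of 9 tested SR kinases and SR-like genes 8 were lower, among them the import receptor Tnpo3 (-0.84), and Clk2 (-0.77) and Srpk2 (-0.75), which phosphorylate SR proteins. After size factors 3 of these 9 were lower and 3 higher. All 33 tested hnRNP and tissue-specific regulators were lower, with a median of -0.87, led by Hnrnpu (-1.35), Ptbp1 (-1.26) and Hnrnpm (-1.22), and 21 of 33 were lower after size factors and 2 higher.

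Promoters of the splicing genes were set beside those of all genes by their letters alone. RefSeq windows of 300 bases around a start site, from GRCm38.p6, were found for 49 of 59 genes (63 windows, since some genes have several; the pseudogene was not looked up). Motifs were searched on both strands. The ETS core CCGGAAG was in 34.9% of the splicing gene windows, in 17.4% of the windows of tested genes and in 8.86% of all 32851 windows. The NRF1 motif, shown in capitals in the Lsm7 sequence with its free base as G, was in 23.8%, 9.76% and 4.60%. The YY1 core AAGATGGCG was in 6.35% (only 4 of 63 windows), 2.95% and 1.40%. The other motifs were closer to the tested genes: the GC box GGGCGG at 63.5%, 61.0% and 35.7%, CCAAT at 39.7%, 37.8% and 37.4%, the E-box CACGTG at 9.52%, 9.79% and 7.15%, and TATAAA at 7.94%, 7.57% and 13.6%. The ETS core was in 5 of 9 windows of higher genes and 16 of 40 windows of lower genes. The stretches before the start site of a pair of higher genes, Lsm5 and Lsm7, and a pair of lower genes, Prpf8 and Prpf19, are shown so that the letters of both can be compared. Each is read 5′ to 3′ on the gene's own strand and capitals mark motif matches (CCAAT reads ATTGG on the other strand; the GC boxes of Lsm7 overlap each other).
Lsm5 (chr6:56704711-56704899, minus strand): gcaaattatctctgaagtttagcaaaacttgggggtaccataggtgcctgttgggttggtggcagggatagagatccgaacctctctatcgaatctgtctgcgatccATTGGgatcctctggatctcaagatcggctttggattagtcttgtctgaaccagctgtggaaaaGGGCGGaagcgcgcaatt
Lsm7 (chr10:80855210-80855409, minus strand): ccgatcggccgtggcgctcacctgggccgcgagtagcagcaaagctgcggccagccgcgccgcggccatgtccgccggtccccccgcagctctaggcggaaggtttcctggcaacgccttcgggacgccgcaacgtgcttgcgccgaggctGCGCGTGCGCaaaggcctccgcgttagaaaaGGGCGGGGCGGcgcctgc
Prpf8 (chr11:75486577-75486776, plus strand): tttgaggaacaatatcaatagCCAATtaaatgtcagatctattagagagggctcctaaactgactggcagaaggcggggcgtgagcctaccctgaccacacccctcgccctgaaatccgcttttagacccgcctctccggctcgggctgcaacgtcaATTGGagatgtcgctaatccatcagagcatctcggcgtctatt
Prpf19 (chr19:10895031-10895230, plus strand): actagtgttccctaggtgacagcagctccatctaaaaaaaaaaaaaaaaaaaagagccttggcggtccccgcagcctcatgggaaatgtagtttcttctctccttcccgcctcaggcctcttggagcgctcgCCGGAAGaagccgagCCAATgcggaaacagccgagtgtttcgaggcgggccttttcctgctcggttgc
The printed stretches are shorter than the counted windows, which run past the start site and hold more matches: 2 ETS cores, 1 CCAAT and 1 GC box at Lsm5, 2 NRF1 motifs, 2 GC boxes and 1 YY1 core at Lsm7, 3 CCAAT at Prpf8, and 1 ETS core and 1 CCAAT at the Prpf19 window printed from. The CCAAT letters stood before genes of both directions, and a match is a run of letters, not a bound site.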

How the data were processed

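RNA was extracted from homogenized tumors with TRIzol, and poly-A libraries kept no strand, per the labels' protocols. The deposited table holds log2(TPM + 1), judged from the values; they were made with RSEM on mm39, per the submitters' processing notes. The aligner, the versions and the annotation are not given in the sources. The authors' deposited comparison (DESeq2, per the submitters' processing notes) holds a normalized mean signal, log2 fold changes, a Wald statistic score and p-values, per the file headers; the log2 values and adjusted p-values were used, and which libraries entered it is not given.

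The genes and lists were chosen with earlier results of these data known. Portions were averaged per tumor on the log2 scale for fold changes and as TPM for TPM means and SDs. The filter was a mean over the 6 tumors of at least 1 TPM. The 13726 genes that passed were fitted with limma 3.58.1 (R 4.3.3; lmFit, then eBayes with a trend), adjusted by Benjamini-Hochberg and called at 0.05. The fit was tested on simulated data. Lengths, positions and overlaps came from GENCODE on GRCm38 for all 60 genes, promoters from RefSeq. Named genes were, in each class, those of highest and lowest fold change and highest TPM, all U2AF genes, genes under the filter, genes opposite to their class, and the 3 of smallest p per direction in each other list; the remaining genes were named after their values were seen. Receptor repertoire measures were not used, and 1 of the genes is counted but not reported singly here. Python 3.11.15, numpy 2.4.6 and pandas 2.3.3 did the rest. Alternatives were size factors, quantile normalization, a pseudocount of 0.1, no filter, a mean TPM of at least 5, single portions, tumor as a random block, a replicate block, robust eBayes, a loess removal (span 0.5) of length and GC trends (96.2% of tested genes) and leaving out each tumor.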

Additional observations from a re-analysis of the deposited data

How the results depend on the processing

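Of 442 alternative values for the 26 tested splicing genes named by rule, 395 kept their call or stayed uncalled, 26 lost the call, 13 gained one and 8 turned. Genes named after their values were seen are outside these 26. They include Lsm4, Lsm8, Prpf31, Snrpa1, Srsf7 and Srsf11, which were called in opposite directions under different settings. Of these changes, 23 fell outside the 3 settings that rescale genes against each other. A change of sign without a call in either fit was not counted as turned, such as Snrpd3 from -0.14 to 0.43 after size factors. Size factors gave 25 higher and 17 lower splicing genes with a median log2 fold change of 0.11, 19 higher and 55 lower genes of the other splicing lists, and 3843 higher and 3505 lower of all genes. Quantile normalization gave 17 higher splicing genes, a median of -0.094, 14 higher genes of the other lists, and 3150 higher and 4243 lower of all genes. Removing the length and GC trend gave 17 higher and 23 lower splicing genes with a median of -0.029, 13 higher and 53 lower of the other lists, and 2611 higher and 3664 lower of all genes. Turned values were Snrpb (0.32), Snrpc (0.55), Snrpf (0.39), Srsf2 (0.12) and U2af1 (0.017) after size factors, Snrpc (0.24) after quantile normalization, and Snrpc (0.65) and Lsm11 (0.14) with the trend removed; the cause was not tested.

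Leaving out each tumor in turn gave 9 to 11 higher and 34 to 37 lower splicing genes. The calls of Lsm1, Snrpb and Snrpb2 were lost in several of these fits. Replicate numbers pair nothing here, since the labels number the tumors separately (correlations of same-numbered deviations 0.03, 0.007 and 0.04). With a replicate block 9 splicing genes were higher and 36 lower. All-gene counts are not given for the leave-out and replicate-block fits, so their counts have no background share beside them.

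TPM keeps no read depth, so no counting error can be given, and 3 tumors per group limit every comparison.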
